A study of Arabidopsis thaliana with 88 samples.

Results

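The genes described here are 8 Arabidopsis loci that roots use to take up iron and to make and release iron-mobilising coumarins. They were listed by locus identifier, with earlier results of these data known: IRT1 (AT4G19690), FRO2 (AT1G01580), FIT (AT2G28160), MYB72 (AT1G56160), F6'H1 (AT3G13610), S8H (AT3G12900), CYP82C4 (AT4G31940) and PDR9 (AT3G53480), 8 of the 33681 genes in the files. The study compared neo-tetraploid plants (4x), made by colchicine, with their diploid progenitors (2x). It did so in wild type Col-0 and in 4 mutants: sos3-2 (a calcium sensor mutant), esb1-1 (defective Casparian strips), rhd6-3/rsl1-1 (which lacks root hairs) and a mutant that the labels call chx25-3. For the last of these the text of the study names chx23-4, a mutant of another cation exchanger gene, and which of these genes the mutation lies in was not settled here. Plate roots came from pools of 2-week-old plants grown on agar with sucrose, while soil roots and soil shoots came from single 5-week-old plants on peat, watered weekly with a dilute nutrient solution. All plants were grown under control conditions, and the iron supply was not a treatment in any group. The iron source did differ between the plate medium and the watered peat, and the iron available to the roots was not measured here. Each neo-tetraploid mutant line was newly made and its ploidy checked by flow cytometry, and line and ploidy cannot be told apart. QuantSeq 3′ mRNA libraries gave 86 grouped libraries in 30 groups, 26 of 3 and 4 of 2 libraries. The groups of 2 were the diploid sos3-2 and rhd6-3/rsl1-1 plate roots, and the neo-tetraploid chx25-3 soil roots and shoots. Of these libraries, 57 in 20 groups were from roots (28 from plates and 29 from soil). Plate root libraries held 3292994 to 10246410 assigned reads, soil root libraries 5850001 to 10435927 and soil shoot libraries 4698905 to 8635528. Leaf mesophyll markers summed to at most 145 CPM (counts scaled to a common library size) in any root library against at least 43600 CPM in any shoot library, and root hair markers to at most 3.42 CPM in shoots.

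In Arabidopsis, iron in the root zone is mostly insoluble ferric iron. The root epidermis reduces it with the ferric chelate reductase FRO2 and imports ferrous iron through IRT1, both under the basic helix-loop-helix transcription factor FIT. Roots also release coumarins that bind and reduce ferric iron: F6'H1 makes the precursor of scopoletin, S8H hydroxylates scopoletin to fraxetin, CYP82C4 converts fraxetin to sideretin, and the ABC transporter PDR9 (also named ABCG37) exports these compounds. MYB72 is a MYB transcription factor that acts below FIT in this response and is known for coumarin secretion.

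All 8 genes lie on the + strand of the TAIR10.1 assembly: IRT1 at chromosome 4, 10707344 to 10709015; FRO2 at chromosome 1, 208995 to 213082; FIT at chromosome 2, 12004658 to 12006276; MYB72 at chromosome 1, 21022384 to 21023587. F6'H1 lies at chromosome 3, 4449259 to 4450811, S8H at chromosome 3, 4104463 to 4106341, CYP82C4 at chromosome 4, 15451988 to 15454224, and PDR9 at chromosome 3, 19825267 to 19831880. The deposited tables name genes by locus only, so the positions are those of RefSeq. The 250 bases before the RefSeq gene start are shown for IRT1, FRO2, S8H and CYP82C4, because these 4 genes varied together from library to library. Capitals mark an E-box, CANNTG, the kind of motif that basic helix-loop-helix factors bind.
IRT1, chr4:10707094-10707343, + strand: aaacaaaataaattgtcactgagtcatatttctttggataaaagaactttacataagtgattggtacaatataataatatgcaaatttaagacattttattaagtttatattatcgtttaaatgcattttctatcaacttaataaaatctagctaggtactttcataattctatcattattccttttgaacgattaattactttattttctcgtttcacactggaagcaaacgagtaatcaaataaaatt
FRO2, chr1:208745-208994, + strand: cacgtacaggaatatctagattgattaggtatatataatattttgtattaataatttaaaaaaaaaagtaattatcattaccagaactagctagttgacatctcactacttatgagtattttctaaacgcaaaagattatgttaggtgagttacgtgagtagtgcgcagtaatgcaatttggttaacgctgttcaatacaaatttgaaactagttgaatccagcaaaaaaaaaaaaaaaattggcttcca
S8H, chr3:4104213-4104462, + strand: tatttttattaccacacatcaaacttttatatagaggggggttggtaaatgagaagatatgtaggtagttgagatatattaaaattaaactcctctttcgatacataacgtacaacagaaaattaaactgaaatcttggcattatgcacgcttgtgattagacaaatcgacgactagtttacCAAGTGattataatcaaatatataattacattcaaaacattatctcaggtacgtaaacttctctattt
CYP82C4, chr4:15451738-15451987, + strand: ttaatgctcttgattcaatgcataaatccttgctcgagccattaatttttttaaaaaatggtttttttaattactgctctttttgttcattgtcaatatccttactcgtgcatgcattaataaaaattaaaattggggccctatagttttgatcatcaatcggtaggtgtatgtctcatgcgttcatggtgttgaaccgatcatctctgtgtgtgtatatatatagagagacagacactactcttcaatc
An E-box was searched on both strands, on which it reads alike, in the 300 bases from 250 before to 50 after the gene start. It was found for 4 of the 8 genes: once in S8H (CAAGTG, first base 68 bases before the gene start), once in FIT, once in PDR9 and 3 times in F6'H1. The G-box CACGTG, which is itself an E-box, was found in none of the 8. Over 27443 protein-coding genes, 61.7% of such windows held an E-box and 7.68% held a G-box. A match is a run of letters, not a bound site, and its absence says only that these letters are not in this window.

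The first question was where the genes were expressed. All 7 members that passed the filter on low counts were higher in soil roots than in soil shoots of the wild type, where 62.3% of the 20347 genes tested passed the test and 34.9% were higher in roots. The test was edgeR's quasi-likelihood test with Benjamini-Hochberg adjustment over all genes tested, and a call required both an adjusted p below 0.05 and a log2 fold change of 0.5 or more in size. IRT1 stood at 58.5, 37.7 and 41.6 CPM in the diploid wild-type soil roots and at 35.8, 32.1 and 33.2 CPM in the neo-tetraploid ones, against 0 to 0.323 CPM in the 6 wild-type shoot libraries (log2 fold change 7.84, SE 0.55, adjusted p = 1.2e-22). PDR9 was higher by 7.40 (SE 0.37), CYP82C4 by 7.35 (SE 1.00), FRO2 by 3.55 (SE 0.43) and FIT by 2.62 (SE 0.29) on the log2 scale. S8H had no read in any of the 6 wild-type shoot libraries. With no shoot read, only its mean of 1.07 CPM in the wild-type soil roots is given here. Limma-voom did not call it (0.78, adjusted p = 0.538) while calling the other 6. Of these genes 6 thus had ranges in root and shoot that did not overlap, as did 43.5% of all genes tested, and F6'H1 was the exception. F6'H1 was higher in roots by 2.10 (SE 0.50, adjusted p = 0.000196), but its wild-type shoot libraries held 24.5, 2.18 and 1.33 CPM in diploids and 9.30, 88.5 and 87.1 CPM in neo-tetraploids. Over all 29 shoot libraries F6'H1 ran from 0 to 88.5 CPM with a median of 5.01 CPM, and within the neo-tetraploid wild type its replicates thus differed many-fold. The group means of F6'H1 were 1.57 to 9.86 CPM in diploid and 11.4 to 61.6 CPM in neo-tetraploid shoots, higher in neo-tetraploids in 5 of 5 genotypes, and this difference was not tested.

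MYB72 did not pass the filter (2 CPM in at least 6 libraries) and was not tested. It had no read in 21 of 28 plate root, 22 of 29 soil root and 22 of 29 soil shoot libraries, and its highest root value was 1.44 CPM. Its expression was therefore not measurable at this depth, and the tests below concern 7 of the 8 genes.

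Soil roots and plate roots were compared next. In the wild type 6 of the 7 genes were lower in soil roots, where 45.2% of all genes tested were called and 22.5% were lower. For the uptake genes the levels were as follows. IRT1 stood at 159, 189 and 92.3 CPM in diploid and 193, 179 and 339 CPM in neo-tetraploid plate roots, all above the 32.1 to 58.5 CPM of the 6 soil root libraries (log2 fold change -2.25, SE 0.31, adjusted p = 4.1e-09). FRO2 stood at 31.1, 36.8 and 26.8 CPM in diploid and 32.5, 40.1 and 74.0 CPM in neo-tetraploid plate roots, against 11.4 to 20.5 CPM in soil roots (-1.31, SE 0.32, adjusted p = 5e-04). FRO2 was not called, however, in the 2x groups alone (-0.73, adjusted p = 0.205). The ranges of both uptake genes were separate in the wild type, as were those of 35.2% of all genes tested. Their regulator FIT ran from 13.9 to 26.4 CPM on plates and from 8.04 to 23.2 CPM in soil, and was not called (-0.38, SE 0.24, adjusted p = 0.178), except in the 4x groups alone (-0.86, adjusted p = 0.0419).

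Of the coumarin genes, CYP82C4 fell by 2.81 on the log2 scale (SE 0.42, adjusted p = 6.69e-08), from 26.1 to 88.7 CPM on plates to 3.21 to 10.6 CPM in soil. F6'H1 fell by 2.00 (SE 0.48, adjusted p = 0.000388), from 293, 342 and 573 CPM in diploid and 432, 328 and 469 CPM in neo-tetraploid plate roots to between 76.4 and 130 CPM. The exporter gene PDR9 fell by 1.45 (SE 0.21, adjusted p = 2.25e-08), from 88.4 to 142 CPM to 30.1 to 50.3 CPM. S8H, the least abundant of the tested members, fell by 1.16 (SE 0.48, adjusted p = 0.0379), with ranges of 1.56 to 3.92 CPM and 0.55 to 1.71 CPM that overlapped. Its call was lost in 7 of 12 fits that left out a library, in the 2x groups alone (-0.73, adjusted p = 0.414) and in the 4x groups alone (-1.60, adjusted p = 0.0662).

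**Figure D1:**
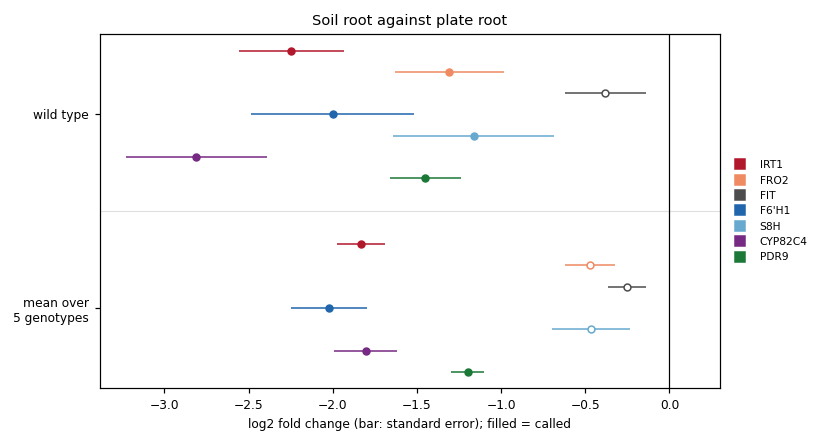
Log2 fold change of 7 genes in soil root against plate root, with bars of 1 standard error; filled points passed the test, open points did not, and negative values are lower in soil roots. In the wild type 6 of 7 points are filled, and over the 5 genotypes IRT1, F6'H1, CYP82C4 and PDR9 are.

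As a mean over the 5 genotypes, 4 of the 7 genes were called, where 47.6% of all genes were called and 23.2% were lower. The log2 fold change was -2.02 for F6'H1 (SE 0.22), -1.83 for IRT1 (SE 0.14), -1.80 for CYP82C4 (SE 0.19) and -1.197 for PDR9 (SE 0.10). F6'H1 was the only one of the 7 whose 28 plate root libraries (263 to 722 CPM) lay wholly above its 29 soil root libraries (68.8 to 161 CPM). Of all genes tested, 8.83% had separate ranges in this comparison. FRO2 (-0.47, adjusted p = 0.00335) and FIT (-0.25, adjusted p = 0.0377) passed the p-value but not the fold change, and S8H gave -0.47 (adjusted p = 0.0626). FRO2 and S8H were called with relative log expression scaling (-0.51 and -0.50) and in the 4x groups alone (-0.77 and -0.99), while the 2x groups alone gave -0.18 and 0.06. The file names number the libraries in 2 series, and all plate root libraries but only 8 soil root libraries were in the first. In those 8 soil libraries F6'H1 ran from 76.4 to 126 CPM, IRT1 from 27.0 to 70.7 CPM and CYP82C4 from 2.02 to 10.6 CPM. With library number as a term within each set, none of the 7 wild-type values was called (IRT1 -3.99, adjusted p = 0.0853). The wild-type values that lost the call were all lower than in the main fit, not nearer to no difference (F6'H1 -3.42, S8H -5.59). The 4 calls over the 5 genotypes held under all 11 alternatives run for them, which did not include leaving out single libraries. Medium (with its iron source), plant age, day length and pooling differed between the sets together and cannot be told apart. In bulk tissue, fewer cells of a type and less RNA per cell also cannot be told apart. The 5 root hair markers all fell in soil roots of the wild type (median log2 fold change -3.18), and their summed level in the wild type was 263 to 667 CPM on plates and 43.3 to 107 CPM in soil. Of 4 endodermis markers 2 were lower (PER64 -1.25, CASP1 -0.87), with summed levels of 432 to 631 CPM on plates and 214 to 444 CPM in soil, and of 3 stele markers 2 were higher (PHO1 1.71, SHR 0.85), with sums of 92.5 to 137 CPM and 237 to 280 CPM. Of 8 clock genes 3 were higher and 1 was lower (CCA1 2.65, PRR9 1.97, PRR7 0.78, ELF4 -3.32), with sums of 114 to 167 CPM on plates and 146 to 315 CPM in soil. The part of these shifts, and of the time of harvest, in the result was not tested.

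**Figure D2:**
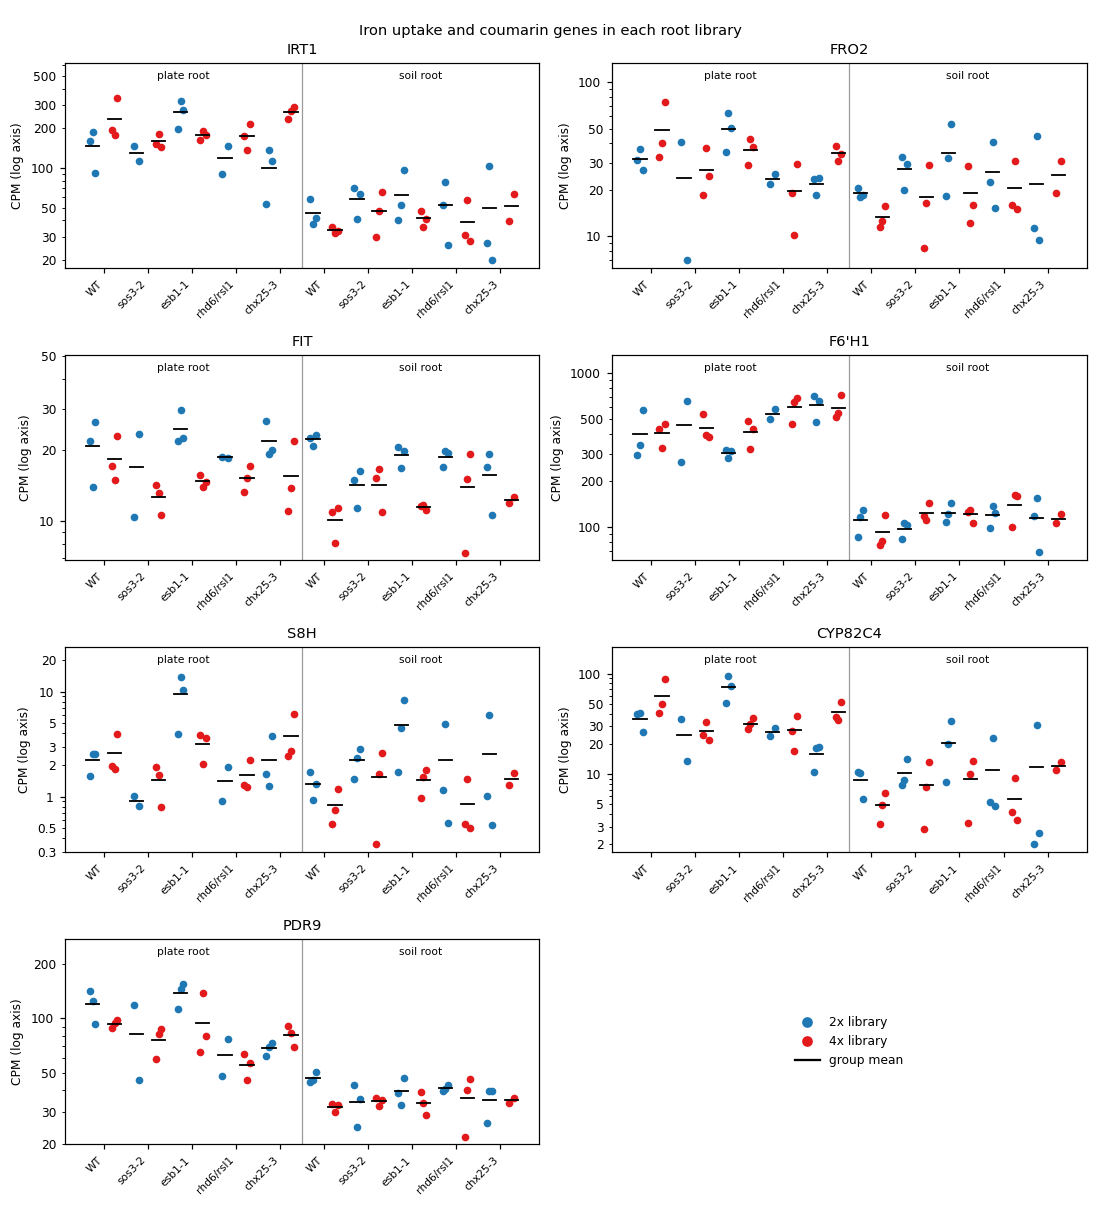
Level of 7 iron uptake and coumarin genes in each of 57 root libraries, in CPM on log axes; blue points are diploid and red points neo-tetraploid libraries, and black lines are group means. F6'H1 is at 263 CPM or more in every plate library and at 161 CPM or less in every soil library, while the FIT ranges overlap.

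Other genes of the same pathways were also compared between soil and plate roots of the wild type. Of all genes tested, 45.2% were called there and 22.5% were lower in soil, which is the share to set beside each count below. Of 14 tested genes for iron uptake, chelation and transport, 11 were lower in soil roots, 1 was higher and 2 were not called, with a median log2 fold change of -2.11 against 0.04 over all genes. The largest differences were in IRT2, a close relative of IRT1 in an intracellular membrane (0.81 against 26.8 CPM, -5.04), the ferric and copper reductase genes FRO5 (-4.83) and FRO4 (-4.76), the copper transporter gene COPT2 (-4.14) and the nicotianamine synthase gene NAS1 (-3.72). IREG2, which loads metals into the vacuole, was the one that was higher (1.81, SE 0.29), and it is named because it was the exception. Of 14 phenylpropanoid and coumarin genes, 9 were lower and 5 were not called. Among those lower were F6'H2, the relative of F6'H1 (-3.72), 4CL3 (-2.77, 0.565 against 3.84 CPM), the beta-glucosidase gene BGLU23 (-2.64), the coumarin synthase gene COSY (-2.03) and PAL2 at the entry of the pathway (-1.24). Of 18 tested regulators, 7 were lower, 1 was higher (BHLH18, 1.101, at under 1 CPM in both) and 10 were not called. The largest were the FIT partners BHLH100 (-5.12), BHLH38 (-4.26) and BHLH39 (-2.22, from 30.1 to 6.54 CPM), followed by BHLH20 (-2.08), whose product promotes the breakdown of FIT, and MYB10 (-1.45), the closest relative of MYB72. FIT itself was not called over both ploidies. Of 7 tested storage genes, 3 were higher and 2 lower, with the vacuolar transporter gene VTL2 at 47.9 CPM in soil against 12.4 CPM on plates (1.98, SE 0.31). Its relative VTL1 was higher by 0.74 and VTL5 was lower (-0.77, 80.8 against 137 CPM), and of the ferritin genes FER1 was higher by 0.71 (SE 0.29) and FER2 was lower (-1.28, 0.88 against 1.92 CPM).

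The mutants were then compared with the wild type, each over both ploidies. In plate roots PDR9 in rhd6-3/rsl1-1 was the only call among 28 member values. There 1 of 7 genes was called where 6.33% of all genes were called and 4.00% were lower. PDR9 stood at 48.0 and 76.9 CPM in the diploid and 63.6, 45.4 and 56.7 CPM in the neo-tetraploid mutant, against 142, 125 and 93.1 CPM in diploid and 88.4, 94.6 and 97.9 CPM in neo-tetraploid wild type. All 5 mutant libraries were below all 6 wild-type libraries (log2 fold change -0.85, SE 0.23, adjusted p = 0.00912). Ranges were separate for 7.74% of all genes tested in this comparison. The call was lost without the first diploid mutant library (-0.70, adjusted p = 0.157) and with library number as a term (-0.98, adjusted p = 1). It was also lost in the 2x groups alone (-0.94, adjusted p = 0.141) and in the 4x groups alone (-0.76, adjusted p = 0.203). On plates each genotype took its own stretch of library numbers, so that genotype and library number cannot be told apart there. In soil roots PDR9 in rhd6-3/rsl1-1 gave -0.02 (SE 0.21).

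In the same rhd6-3/rsl1-1 plate roots, relatives of 3 members were called while those 3 members were not. IRT2 ran from 0.364 to 1.12 CPM in the mutant and from 15.7 to 40.8 CPM in the wild type (log2 fold change -5.39, SE 0.48, adjusted p = 7.74e-13), whereas IRT1 ran from 89.6 to 217 CPM in the mutant and gave -0.37 (SE 0.32, adjusted p = 0.563). F6'H2 ran from 0 to 0.127 CPM in the mutant and from 2.64 to 6.22 CPM in the wild type (adjusted p = 3.22e-10), whereas F6'H1 gave 0.49 (SE 0.49, adjusted p = 0.63). In the edgeR fit of the root libraries alone F6'H1 gave 0.494 (SE 0.194, adjusted p = 0.0761), also not called. FRO5 ran from 1.14 to 1.82 CPM against 12.6 to 24.2 CPM (-3.61, SE 0.41), whereas FRO2 gave -0.87 (SE 0.34, adjusted p = 0.115). The difference between a member and its relative was not itself tested. In all, 4 of 14 uptake genes were lower (FRO4 at -1.31 and FRO3 at -0.92 as well), 2 of 14 phenylpropanoid genes (BGLU21 at -1.76), and 3 of 18 regulators (BTSL1, an E3 ligase gene, at -1.503, BHLH38 at -1.44 and BHLH39 at -1.19). Of all genes tested, 4.00% were lower there. The vacuolar iron transporter gene VTL2 was higher (1.097, SE 0.32). The 5 root hair markers summed to between 5.87 and 8.02 CPM in these mutant libraries and to between 263 and 667 CPM in the wild-type plate roots. The part of these markers' shift in the differences was not tested. In soil roots of the mutant 0 of 7 members was called (0.870% of all genes), and FRO5 was higher (2.13 against 0.59 CPM, 1.70, SE 0.42).

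**Figure D3:**
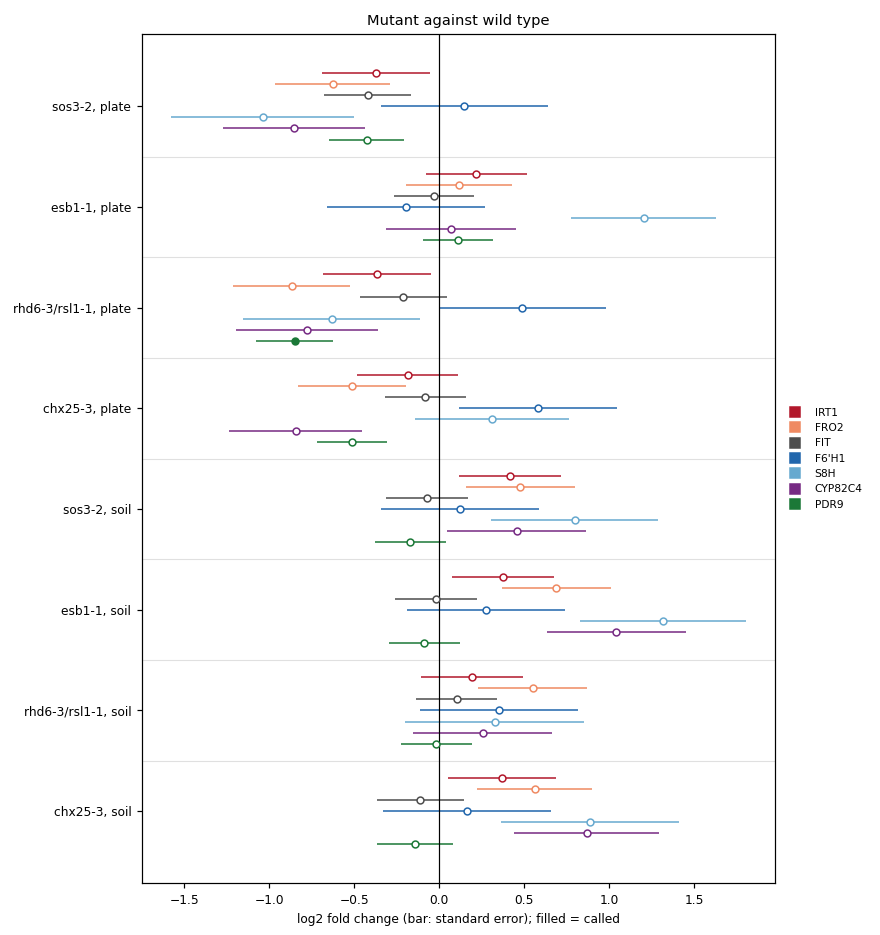
Log2 fold change of 7 genes in each mutant against wild type, over both ploidies, in plate and soil roots, with bars of 1 standard error; filled points passed the test. The one filled point is PDR9 in rhd6-3/rsl1-1 plate roots at -0.85, and S8H lies furthest to the right in esb1-1, at 1.201 on plates and 1.32 in soil.

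In esb1-1 none of the 7 genes was called by edgeR on plates (3.42% of all genes) or in soil (0.831%), and an unadjusted p below 0.05 was found for 1 and 3 genes; limma-voom called 1 and 0, and DESeq2 0 and 0. S8H was the gene concerned on plates. It stood at 3.99, 13.8 and 10.4 CPM in diploid esb1-1 against 1.56, 2.53 and 2.55 CPM in diploid wild type, and at 3.84, 2.04 and 3.60 CPM in the neo-tetraploid mutant against 1.97, 1.84 and 3.92 CPM in the neo-tetraploid wild type. The diploid groups did not overlap and the neo-tetraploid groups did. Over both ploidies the log2 fold change was 1.201 (SE 0.43, adjusted p = 0.107), and in the 2x groups alone it was 2.09 (adjusted p = 0.0434). In soil S8H stood at 1.70, 4.54 and 8.31 CPM in diploid esb1-1 against 1.71, 0.93 and 1.32 CPM (1.32 over both ploidies, SE 0.49, adjusted p = 0.484). Among the related genes, IRT2 (-1.32), FRO5 (-1.17) and F6'H2 (-1.60) were lower in esb1-1 plate roots. In esb1-1 soil roots IMA1, which encodes a small iron signalling peptide, was higher (4.60 against 0.83 CPM, 2.50, SE 0.66, adjusted p = 0.0414). Root hair markers summed to 125 to 293 CPM in the esb1-1 plate roots, against 263 to 667 CPM in the wild type.

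In sos3-2 none of the 7 genes was called by edgeR, DESeq2 or limma-voom on plates (0.0983% of all genes) or in soil (0.0639%), and an unadjusted p below 0.05 was found for 1 and 0 genes. The diploid sos3-2 plate group held only 2 libraries, and they stood apart: FRO2 was at 40.7 and 6.94 CPM, PDR9 at 118 and 45.2 CPM and F6'H1 at 263 and 660 CPM. Without the first of them FRO2 (-1.52, adjusted p = 0.0232) and PDR9 (-0.85, adjusted p = 0.0411) were called lower. In chx25-3 none was called by edgeR on plates (2.72%) or in soil (0.0295%), and an unadjusted p below 0.05 was found for 2 and 1 genes; limma-voom called 1 and 0. The gene it called was PDR9 (-0.51, adjusted p = 0.0231), which edgeR gave at -0.51 (SE 0.21, adjusted p = 0.157), with 62.1 to 90.5 CPM in the mutant against 88.4 to 142 CPM in the wild type. F6'H1 gave 0.58 (SE 0.47) on plates, with 482 to 722 CPM in the mutant against 293 to 573 CPM in the wild type. When the shoot libraries were left out of the fit, the SE of F6'H1 narrowed to 0.185 and it was called (0.58, adjusted p = 0.0338). The spread of F6'H1 among shoots therefore entered each of its tests here. BHLH39 was lower in chx25-3 plate roots (15.1 against 30.1 CPM, -1.006, SE 0.26).

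The comparison of neo-tetraploid with diploid roots was made within each genotype. In every plate genotype all diploid libraries were numbered before all neo-tetraploid ones. Ploidy and library order therefore cannot be told apart within a plate genotype. In plate roots 0 of 7 genes was called in any of the 5 genotypes, where the share of all genes called was 0.0246% in wild type. The sos3-2 share was 0%, that of esb1-1 0.0541%, that of rhd6-3/rsl1-1 0.00983% and that of chx25-3 2.83%. In soil roots 0 of 7 was called, where the shares were 0.0491%, 0.00983%, 0.00491%, 0.0197% and 0.0246% in the same order. Over these 10 comparisons edgeR gave 9 of 70 member values at an unadjusted p under 0.05, DESeq2 called 1 and limma-voom called 2.

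IRT1 in chx25-3 plate roots came closest. It stood at 53.3, 136 and 112 CPM in the diploid and 237, 272 and 289 CPM in the neo-tetraploid mutant, with no overlap (log2 fold change 1.40, SE 0.43, adjusted p = 0.0538). It was called with DESeq2 (1.39, adjusted p = 0.0275), limma-voom (1.49, adjusted p = 0.0045) and the root libraries alone (1.39, adjusted p = 0.0267), and was not called with library number as a term (0.98, adjusted p = 0.343) or without any 1 of the 6 libraries (1.097 to 1.677). CYP82C4 was at 10.5, 18.4 and 18.6 CPM against 36.9, 34.6 and 52.0 CPM (1.36, SE 0.57, adjusted p = 0.19), and FRO2 at 23.5, 18.4 and 23.8 CPM against 38.7, 30.7 and 34.3 CPM (0.66, SE 0.46, adjusted p = 0.505). These 3 of 7 genes had separate ranges, as did 25.9% of all genes tested. FIT in the same libraries had 26.5, 19.3 and 20.1 CPM in diploids and 11, 13.8 and 21.8 CPM in neo-tetraploids (-0.49, SE 0.34).

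In esb1-1 plate roots the fitted values of IRT1 and CYP82C4 pointed the other way, while FIT was below 0 as in chx25-3 (-0.74, SE 0.34, adjusted p = 0.624). IRT1 was at 198, 322 and 273 CPM in diploids and 163, 192 and 178 CPM in neo-tetraploids (-0.57, SE 0.42, adjusted p = 0.865). CYP82C4 was at 50.6, 94.5 and 76.0 CPM against 27.9, 31.6 and 36.0 CPM (-1.21, SE 0.55, adjusted p = 0.618), and S8H gave -1.57 (SE 0.59, adjusted p = 0.477). Ranges were separate for 5 of 7 genes here, where 18.8% of all genes had separate ranges, and F6'H1 was the one of the 5 that was higher in neo-tetraploids (322 to 490 CPM against 279 to 318 CPM). The ploidy difference in each mutant was set against that in wild type by an interaction term, and 0 of 56 member values was called in the 8 such comparisons, in which 0.00491% to 0.0983% of all genes were called. On plates those shares were 0.00983% in sos3-2 and esb1-1, 0.00491% in rhd6-3/rsl1-1 and 0.0983% in chx25-3, and in soil 0.0197%, 0.0197%, 0.0147% and 0.00491% in the order sos3-2, esb1-1, rhd6-3/rsl1-1 and chx25-3. At an unadjusted p under 0.05 there were 4, and neither DESeq2 nor limma-voom called any. The largest of the 4 was CYP82C4 in esb1-1 plate roots (-1.96, SE 0.78, adjusted p = 1).

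FIT belongs to a core list that the study chose on these wild-type soil root libraries as lower in neo-tetraploids, so its wild-type soil value is not independent evidence of that direction. There it stood at 22.5, 20.9 and 23.2 CPM in diploids and 8.04 to 11.4 CPM in the 3 neo-tetraploids (log2 fold change -1.13, SE 0.34, adjusted p = 0.598), and it was called with limma-voom (-1.145, adjusted p = 0.0128) and with the root libraries alone (-1.13, adjusted p = 0.0452). In the other soil-grown genotypes FIT gave -0.73 in esb1-1 (SE 0.34), -0.44 in rhd6-3/rsl1-1 (SE 0.34), -0.35 in chx25-3 (SE 0.38) and 0.004 in sos3-2 (SE 0.34). The core list also required that a gene was not differentially expressed between ploidies in sos3-2 and esb1-1. The soil values of FIT in those mutants are therefore not independent of the list either. The esb1-1 ranges were separate, at 20.6, 16.8 and 19.8 CPM against 11.6, 11.7 and 11.1 CPM, as were those of 16.6% of all genes tested. In plate roots the 5 fitted values of FIT were all below 0, from -0.74 to -0.17. PDR9 (44.3, 45.4 and 50.3 CPM against 33.6, 30.1 and 33.2 CPM), IRT1 and FRO2 also had separate ranges in wild-type soil roots, which makes 4 of 7 genes where 11% of all genes had separate ranges. Root hair markers summed to 92.4 to 107 CPM in the diploid and 43.3 to 52.9 CPM in the neo-tetraploid wild-type soil roots, and endodermis markers to 293 to 444 CPM and 214 to 219 CPM. The part of these shifts in the values of FIT and PDR9 was not tested.

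**Figure D4:**
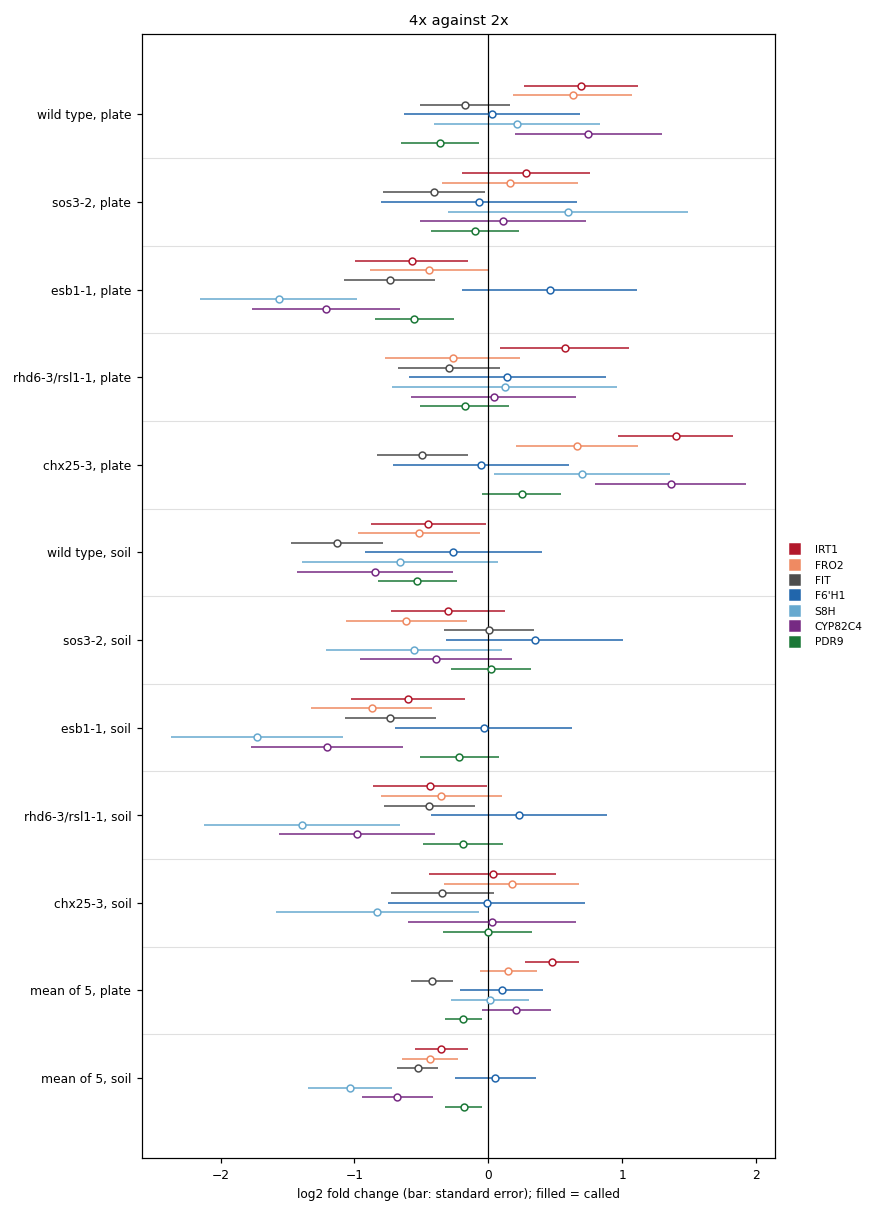
Log2 fold change of 7 genes in neo-tetraploid (4x) against diploid (2x) roots for each genotype and for the mean of 5 genotypes, with bars of 1 standard error; open points did not pass the test. No point is filled, IRT1 in chx25-3 plate roots lies at 1.40 and FIT in wild-type soil roots at -1.13.

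As a mean over the 5 genotypes, 0 of 7 genes was called by edgeR in plate roots (0.172% of all genes called) or in soil roots (0.816%), and an unadjusted p below 0.05 was found for 2 and 4 genes. DESeq2 and limma-voom each called 0 on plates and 1 in soil, and the gene called was FIT. Its soil value was -0.53 (SE 0.16, adjusted p = 0.0936) and lay between -0.54 and -0.52 under the 9 alternatives, 6 of which called it. This mean includes the wild-type soil value of FIT (-1.13), from libraries on which the study chose its core list. A mean without the wild type was not run, so these calls are not independent of that choice. S8H gave -1.03 in soil (SE 0.32, adjusted p = 0.124), below 0 in 5 of 5 genotypes, and was called in 3 alternatives. Leaving out the second diploid chx25-3 library, in which S8H stood at 6.03 CPM, above both other libraries of its group (the lowest 0.539 CPM), moved S8H to -0.68 and CYP82C4 from -0.68 to -0.21. F6'H1 gave 0.05 (SE 0.30). On plates IRT1 gave 0.47 (SE 0.20, adjusted p = 0.385) and FIT -0.42 (SE 0.16, adjusted p = 0.321).

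Within groups, some of the genes varied together from library to library. Each member was correlated with all tested genes over the 57 root libraries, as log2(CPM + 1) centred within each of the 20 root groups, and the 3 genes with the highest Pearson r were taken. For IRT1 these were CYP82C4 (r = 0.79), FRO2 (r = 0.78) and S8H (r = 0.73), and for CYP82C4 they were S8H (r = 0.83), IRT1 and FRO2 (r = 0.75). S8H had CYP82C4, IRT1 and GSTL1 (r = 0.70), and FRO2 had AT3G07720 (r = 0.78), IRT1 and CYP82C4. A transporter gene, a reductase gene and a pair of coumarin hydroxylase genes were thus among each other's 3 nearest genes in 10 of the 12 places. The 4 were grouped after their correlations were seen. The clearest single case was soil-grown diploid chx25-3, where its second library held 103 CPM of IRT1, 45 of FRO2, 6.03 of S8H and 30.6 of CYP82C4. The other 2 libraries of that group held 27 and 20 CPM of IRT1, 11.3 and 9.48 of FRO2, and 2.02 and 2.59 of CYP82C4. FIT in these libraries was at 17, 19.3 and 10.6 CPM.

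All 21 pairs of the 7 members were computed, with permutation tests of 100000 permutations within groups and adjustment over the 21 pairs. The 6 pairs among IRT1, FRO2, S8H and CYP82C4 had r from 0.66 to 0.83 and rho from 0.58 to 0.80 (two-sided permutation tests, adjusted p at most 0.00049 for r and 0.00072 for rho), and r from 0.63 to 0.77 without the 2 libraries farthest from the median. Within sets r ran from 0.354 to 0.831 in 28 plate libraries and from 0.756 to 0.939 in 29 soil libraries. With library number and its square taken out, it ran from 0.332 to 0.863 and from 0.821 to 0.945. FIT was not near this group, with r = 0.096 to IRT1 and r = -0.04 to FRO2 over the 57 libraries. FIT went instead with F6'H1 (r = 0.665, rho = 0.597, permutation p = 6e-04 for r, adjusted p = 0.0018), in plate (r = 0.75) and soil (r = 0.56) libraries alike. F6'H1 and PDR9 ran against each other on plates (r = -0.77) and not in soil (r = 0.28), which gave r = -0.36 pooled (permutation p = 0.17, adjusted p = 0.28).

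**Figure D5:**
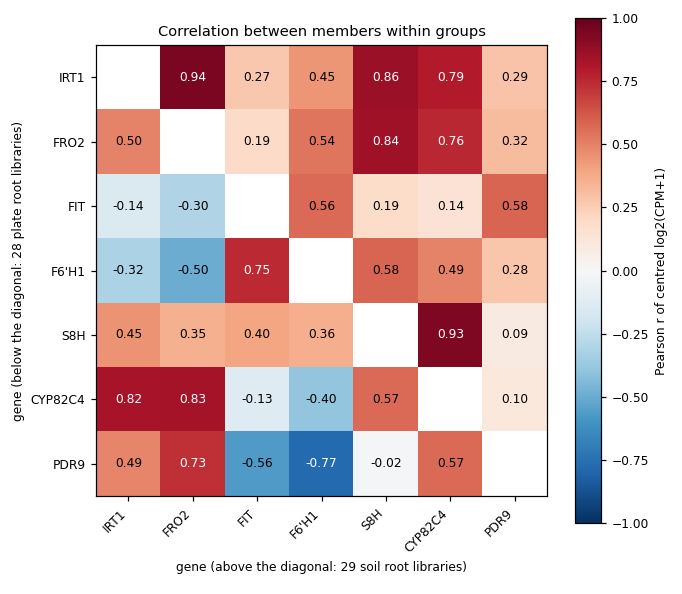
Pearson r between 7 genes of log2(CPM + 1) centred within groups, with 28 plate root libraries below the diagonal and 29 soil root libraries above it. IRT1, FRO2, S8H and CYP82C4 are positive in all pairs above and below the diagonal, and PDR9 is at -0.77 to F6'H1 on plates.

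The nearest genes of the other members were of other kinds. For F6'H1 they were the tetraspanin gene TET8 (r = 0.855), the translation factor gene ELF5A-1 (r = 0.85) and AT1G74460 (r = 0.84). For FIT they were AT2G28990 (r = 0.81), CYP72A14 (r = 0.80) and AT2G39530 (r = 0.78). For PDR9 they were EDR2 (r = 0.82), the plastid gene ATCG00670 (r = 0.79) and MIM (r = 0.79). Measures of the whole library moved with these 3 members as well: on plates the summed endodermis markers had r = 0.835 to F6'H1, 0.646 to FIT and -0.566 to PDR9, and the summed clock genes 0.745, 0.776 and -0.42. For IRT1 the same values were 0.003 and 0.072, while its r to the number of assigned reads was 0.53 on plates and -0.18 in soil. In soil the summed root hair markers had r = 0.69 to FIT, 0.54 to IRT1, 0.53 to PDR9 and 0.47 to FRO2. These are descriptions over 28 and 29 libraries, and the part of cell composition or sampling time in them was not tested.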

How the data were processed

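RNA from plate roots, soil roots and soil shoots was sequenced as QuantSeq 3′ mRNA libraries. The authors quantified transcripts with Salmon (version, transcript set and genome build not given in the sources used here). The deposited expected counts per transcript are Salmon estimates and need not be whole. They were summed per locus and rounded here (81620 transcripts, 33681 genes). The deposited TPM values were also made by the authors with Salmon, and the gene table equalled the summed transcript values within 2.9e-11. Reads shared with near-identical copies (IRT1 with IRT2, F6'H1 with F6'H2, CYP82C4 and MYB72 with relatives) are split by the estimate, and whether strand was used in counting is not given in the sources used here.

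The 20347 genes that reached 2 CPM in 6 or more libraries were kept. All 86 grouped libraries entered 1 fit with a mean per group (edgeR 4.0.16 in R 4.3.3, TMM scaling), 31 contrasts were tested, and CPM values use the TMM library sizes. Alternatives were DESeq2 1.42.0, limma-voom (limma 3.58.1) on TPM scaled to library size, another scaling, no filter, root libraries alone, a replicate block, library number or series from the file names, each ploidy alone and leaving out each library. The fit was run on simulated counts with the same spread for every gene and with differences planted only in well-covered genes. That setting is unlike S8H at a few CPM and F6'H1 among shoots, so it does not speak for them. The labels do not say that soil root and shoot libraries came from the same plants, and p-values measure the spread between the libraries of a group, which on plates are pools of plants. The 2 libraries whose title and genotype label disagree were left out of all comparisons.

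The 8 genes and all lists were chosen with earlier results of these data known. Named genes were the 8 members, the 3 nearest genes of each by Pearson r, and up to 5 called genes per pathway list and comparison by absolute log2 fold change. Promoter windows were read from RefSeq TAIR10.1; the build behind the counts is not given in the sources used here, so no coordinate was used for counting.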

Additional observations from a re-analysis of the deposited data

Results flagged for a closer look

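In plate roots the ploidy differences of IRT1 and of CYP82C4 ran in opposite directions in esb1-1 and chx25-3, with separate ranges in each. Ranges were separate for 18.8% of all genes tested in esb1-1 and for 25.9% in chx25-3. Every neo-tetraploid esb1-1 library lay below every diploid one, and every neo-tetraploid chx25-3 library lay above. The log2 fold change in esb1-1 minus that in chx25-3 was -1.97 for IRT1 and -2.57 for CYP82C4. This difference was not tested, and neither gene was called within either mutant. In both mutants all diploid plate libraries were numbered before the neo-tetraploid ones, so ploidy and library order cannot be told apart.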

How the results depend on the processing

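Of 217 member values 18 were called, and of 3619 values under the alternatives 3554 kept their call or lack of one, 28 lost the call, 37 gained it and 0 called values changed sign. Among the 3554, 200 uncalled values changed sign. The number of members called moved by over 1.5 times as follows. For soil against plate roots of the wild type it went from 6 to 0 with library number, or library number and its square (added after seeing the data), as a term. For rhd6-3/rsl1-1 against wild type on plates it went from 1 to 0 with either term, in the 2x groups alone and in the 4x groups alone, and lay between 0 and 1 without single libraries. For sos3-2 on plates it lay between 0 and 2 without single libraries. For esb1-1 on plates it went from 0 to 1 with limma-voom, root libraries alone, the replicate block and the 2x groups alone, and for chx25-3 on plates to 1 with limma-voom and root libraries alone. For ploidy in chx25-3 plate roots it went from 0 to 1 without the filter, with DESeq2, limma-voom, root libraries alone, the replicate block and the series term. For ploidy in wild-type soil roots it went to 1 with limma-voom and root libraries alone. For the mean ploidy difference in soil roots it went to 1 with DESeq2, limma-voom, root libraries alone, library number and the series term, to 2 with the replicate block and to 3 with library number and its square. Smaller moves were, for soil against plate over 5 genotypes, from 4 to 6 with DESeq2, relative log expression scaling and the 4x groups alone and to 5 with limma-voom, the replicate block, the series term and library number and its square. For the wild type it went from 6 to 4 in the 2x groups alone and lay between 5 and 6 without single libraries, and for root against shoot it went from 7 to 6 with limma-voom. Apart from the terms themselves and the smaller samples, the cause was not tested.

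Replicate numbers were not used to pair the libraries in the main fit. Of 7 comparisons with 3 pairs, every pair correlated above 0.1 in 1. Over those 7, r ran from -0.258 to 0.517 on plates and from -0.21 to 0.341 in soil. In soil roots the first replicates lay mostly in the first series of file names and the later replicates in the second. Whether the soil libraries were paired was therefore not settled. With the replicate block IRT1 in chx25-3 gave 1.43, and mean FIT and S8H in soil gave -0.53 and -1.07. Leaving out single libraries (57 fits) was not run for the interactions, root against shoot, or the soil against plate mean over 5 genotypes. S8H, at a few CPM, and MYB72 were limited by depth.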

Other observations

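The 2 libraries left out, a soil root and a soil shoot library titled as X25 but labelled sos3-2, belong to no comparison above. The root library held 35.2 CPM of IRT1, 11.7 of FRO2, 11.2 of FIT, 119 of F6'H1, 0.403 of S8H, 1.81 of CYP82C4 and 34.8 of PDR9. The shoot library held no read of IRT1 or S8H, 0.402 CPM of FRO2, 1.61 of FIT and 51.2 of F6'H1. That CYP82C4 level was under the lowest of the 29 grouped soil root libraries (2.02 CPM), and the F6'H1 shoot level was over the median of the 29 shoot libraries (5.01 CPM).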
